A study of Mus musculus with 10 samples.

Results

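Transcripts of 10 genes of iron and heme handling were followed in RNA-seq of cells sorted from mouse liver. The genes were taken by name: Trf, Hp, Hpx, Hamp, Hamp2, Tfrc, Tfr2, Slc40a1, Fth1 and Hmox1. They are 10 of the 29972 genes that the deposited tables hold once transcripts are summed by gene, and all 10 were among the 14765 that passed a filter on low values (at least 1 TPM, an abundance per transcript length on a fixed total, in 3 or more libraries). Cholangiocytes, which form the epithelium of bile ducts, made up 2 groups. Group HpC (4 libraries) held peripheral ones that had arisen from hepatocytes, and group pC (3 libraries) ordinary peripheral ones. Group H (3 libraries) held hepatocytes. The HpC and H mice carried Alb-Cre+/- with Rbpjf/f and Hnf6f/f, and the pC mice carried the same floxed alleles without Cre. All were of a mixed C57BL/6, FVB and CD1 background, and no sample came from mice without the floxed alleles. The albumin promoter that drives Cre is active in hepatocytes and in the embryonic precursors that hepatocytes and cholangiocytes share. By postnatal day (P), the mice were P124, P151, P144 and P139 for HpC1 to HpC4, P151, P119 and P142 for pC1 to pC3, and P134, P139 and P139 for H1 to H3. HpC and pC were sorted by flow cytometry from nonparenchymal cells that perfusion and more digestion steps had released, and H once the liver was perfused. A difference between HpC and pC therefore goes with genotype as well as with the origin of the cell, and a difference from H with the digestion too, and these cannot be told apart. The labels do not say whether H2 and H3 came from separate animals, and H1 differs from them in age. The spread between H2 and H3 may thus be only technical, and p-values against H may then be too small. HpC4 shares the genotype and age (P139) of H2 and H3, and whether it came from the same animal as either is not stated. The choice of groups asks how cholangiocytes that formed from hepatocytes compare with ordinary ones and with hepatocytes.

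The liver sets the body's iron balance. Hepatocytes secrete transferrin (Trf), which carries iron in plasma, haptoglobin (Hp), which binds free hemoglobin, and hemopexin (Hpx), which binds free heme. They also make hepcidin (Hamp), the peptide hormone that removes the iron exporter ferroportin (Slc40a1) from cell membranes. Mice have a second hepcidin gene, Hamp2, next to the first. Iron-loaded transferrin enters cells through transferrin receptor 1 (Tfrc), whereas transferrin receptor 2 (Tfr2) serves hepatocytes and erythroid cells as a sensor of it. Iron is stored in ferritin, built of heavy (Fth1) and light (Ftl1) chains, and heme oxygenase 1 (Hmox1) frees iron from heme. Cells with little iron have active iron regulatory proteins, which bind hairpins called iron-responsive elements (IREs). A 5′ element blocks translation of ferritin and ferroportin mRNA, and 3′ elements protect Tfrc mRNA from decay.

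These hairpins are shown because they bear on which members an mRNA level can report on. The search took the loop CAGTGN closed by 5 base pairs (G with T counted as a pair), with an unpaired C just before the stem, on the transcribed strand of untranslated regions in GENCODE M21. It matched a 5′ region in 29 of 19281 genes (0.15%) and a 3′ region in 131 of 19715 (0.664%). Among the members it matched Fth1, Slc40a1 and Tfrc, with 4 elements in Tfrc. Among the other genes of the pathways examined below it matched Ftl1, Alas2 (5′ region) and Bola3 (3′ region), of which only Ftl1 is printed. The loop is in capitals, positions are on mm10, and each sequence reads 5′ to 3′ on the gene's strand.
Fth1 5′ element (chr19:9982732-9982760, plus strand): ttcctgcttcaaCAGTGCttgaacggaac
Ftl1 5′ element (chr7:45459779-45459807, minus strand): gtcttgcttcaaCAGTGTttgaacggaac
Slc40a1 5′ element (chr1:45925465-45925493, minus strand): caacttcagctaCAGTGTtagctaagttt
Tfrc element A (chr16:32631219-32631247, plus strand): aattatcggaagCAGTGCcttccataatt
Tfrc element B (chr16:32631598-32631626, plus strand): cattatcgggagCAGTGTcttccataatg
Tfrc element C (chr16:32631663-32631691, plus strand): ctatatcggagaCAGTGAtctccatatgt
Tfrc element D (chr16:32631710-32631738, plus strand): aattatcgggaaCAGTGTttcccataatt
A match is a description of the letters. Regulation through the 5′ elements acts on translation, which these libraries did not measure, so a level of Fth1 or Slc40a1 mRNA does not report on it.

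Libraries had 10232 (H2) to 14489 (pC3) genes at 1 TPM or more, and their read numbers are unknown. Values below are scaled TPM, a level per transcript length divided by a factor between libraries (0.499 to 0.585 in H, 0.668 to 1.61 in the others). The 12 hepatocyte markers examined (Alb, Ttr, Apoa1 and others) summed to 89750 to 97300 scaled TPM in H, 3120 to 5980 in HpC and 1034 to 2709 in pC. The 10 cholangiocyte markers (Epcam, Krt19, Sox9 and others) summed to 41.2 to 52.6 in H, 1948 to 3177 in HpC and 5581 to 5750 in pC. Each label thus had its defining markers, and both cholangiocyte groups also held hepatocyte transcripts. Markers of macrophages, which recycle iron, summed to 17.1 to 49.0 in HpC, 29.3 to 39.7 in pC and 0.740 to 1.25 in H over 13 genes. Pancreatic enzyme transcripts reached 313802 scaled TPM in HpC1 and squamous epithelial ones 39785 in HpC2, so results were also computed without these libraries. Lower sums remained elsewhere, with squamous transcripts at 823 in HpC3 and 551 in HpC4 (26.6 to 69.2 in pC) and pancreatic ones at 1295 in pC3. Mesothelial markers summed to 415 to 991 in HpC, 431 to 566 in pC and 0.826 to 1.87 in H, and of these 7 genes, which include the cholangiocyte marker Krt19, 3 were higher and 1 lower in HpC than in pC. The part of these cells in the members' levels was not tested.

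The members fell into 3 patterns. Trf and Hp were higher in HpC than in pC and much lower in both than in H. Hpx, Hamp, Hamp2, Tfr2, Slc40a1 and Fth1 were lower than in H in both cholangiocyte groups and did not pass between HpC and pC. For Slc40a1, and for Fth1 in pC, the call against H depended on the scaling. Tfrc passed in no comparison, and Hmox1 passed as higher in HpC than in H only. On TPM as deposited, without scaling between libraries, both were higher than in H in HpC and in pC. Tests were made by limma over all 14765 genes on log2(scaled TPM + 1), with Benjamini-Hochberg adjustment at a 5% false discovery rate. Between HpC and pC, 2 of the 10 members were higher and 0 lower, where 4.54% of all genes tested passed, 1.99% higher and 2.55% lower. At an unadjusted p under 0.05 the counts were 4 higher and 0 lower, beside 1162 higher and 1462 lower of all 14765 genes. Against H, 8 members were lower in HpC and 8 in pC, where 29.2% and 28.6% of all genes were lower, and 1 and 0 were higher, where 30.7% and 31.1% were. In either direction 59.9% and 59.6% of all genes passed. The median difference over the members was 0.37 for HpC against pC, -4.60 for HpC against H and -5.86 for pC against H, beside -0.01, 0.08 and 0.11 over all genes. Both comparisons with H share the H libraries and both with HpC share the HpC libraries, so they are not independent.

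**Figure D1:**
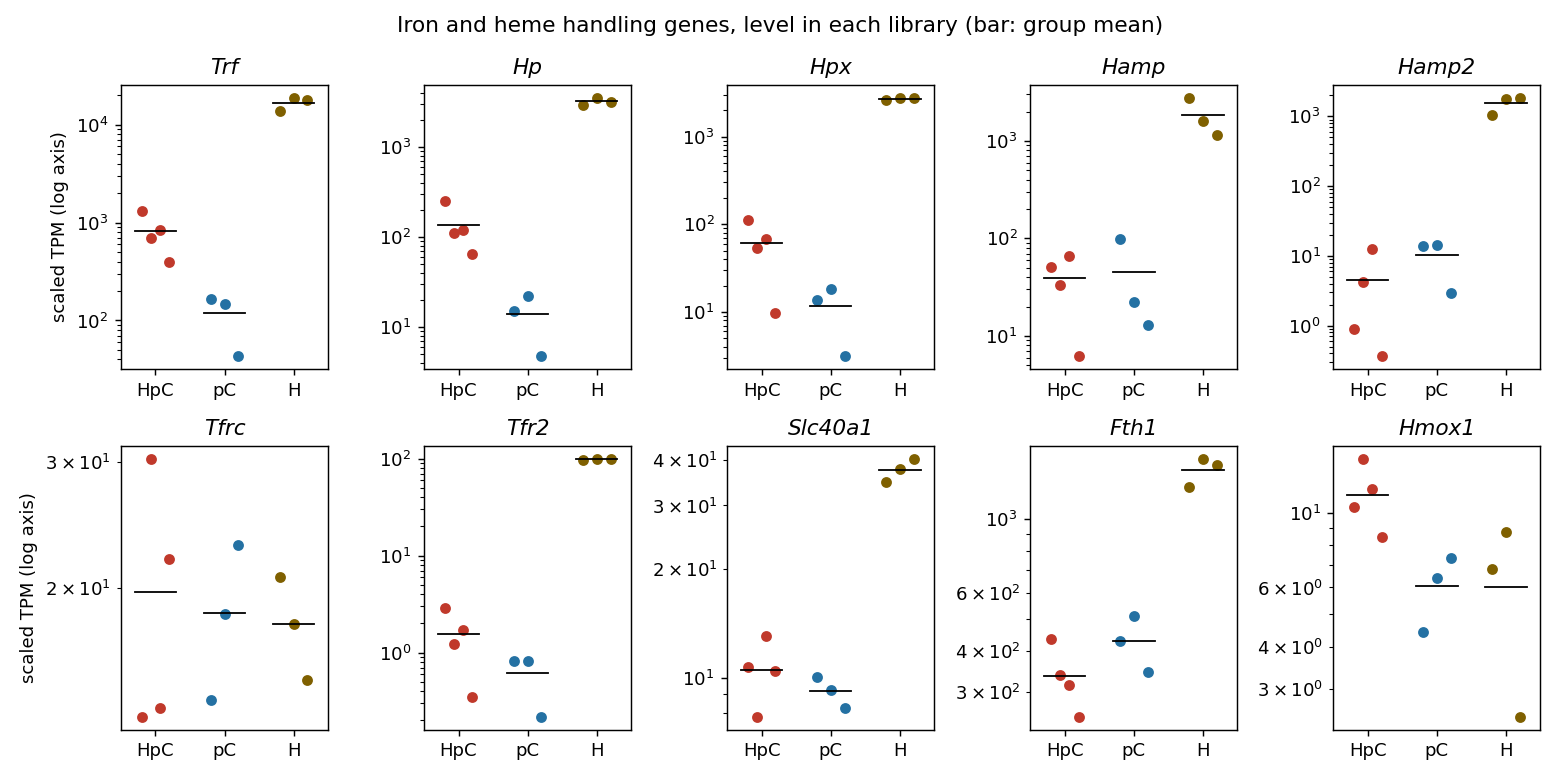
Scaled TPM on a log axis for each of the 10 genes, with a point per library in HpC, pC and H and a bar at the group mean. Trf and Hp lie in 3 separate ranges in the order H, HpC, pC, whereas Tfrc ranges overlap, from 13.2 to 30.3 over all libraries.

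**Figure D2:**
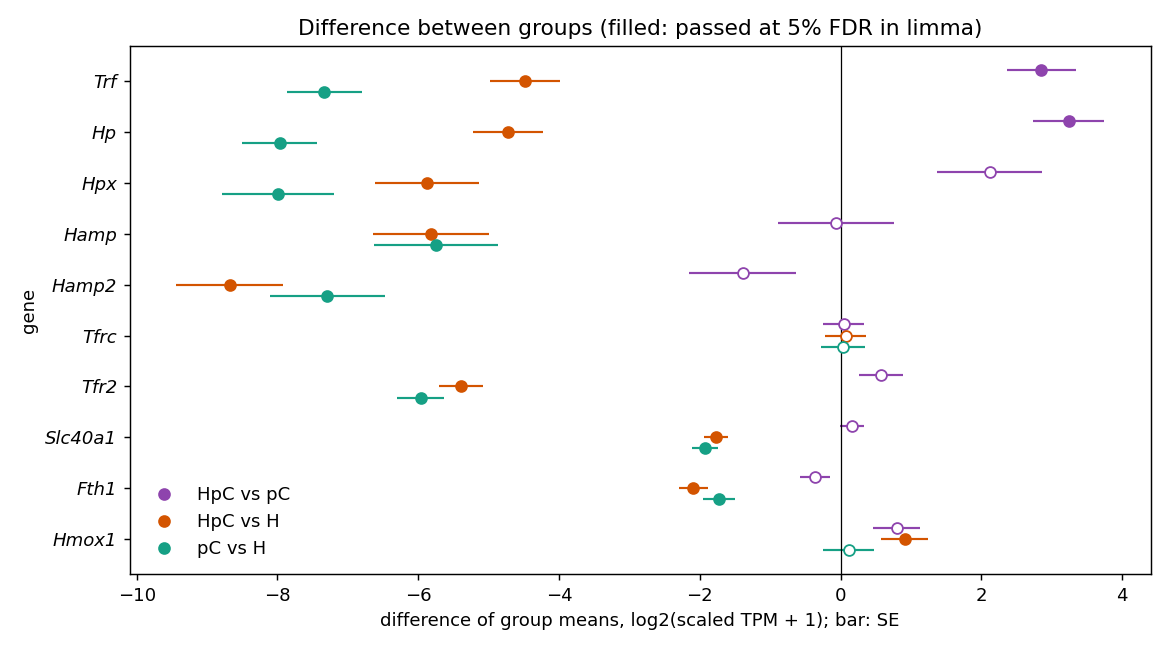
Difference of group means on the log2(scaled TPM + 1) scale for each gene and comparison, with bars of 1 SE and filled points for those that passed at 5% in limma. Trf (2.85) and Hp (3.24) are the filled points for HpC vs pC, and 8 genes lie well below 0 against H.

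The plasma carriers separated HpC from pC. Trf (ENSMUSG00000032554, mm10 chromosome 9, 103204001 to 103230444, minus strand) stood at 1323, 690, 835 and 400 scaled TPM across HpC1 to HpC4. It stood at 165, 147 and 43.3 across pC1 to pC3 and at 13710, 18799 and 17757 across H1 to H3. Every HpC library was above every pC library and below every H library. The HpC mean was 812 ± 386 (SD, n = 4), 6.84 times the pC mean of 118.6 ± 65.8 (n = 3), and the log2 difference was 2.85 ± 0.49 (SE; limma adjusted p = 0.0102). Against H, whose mean was 16755 ± 2688 (n = 3), Trf reached 4.85% in HpC (log2 difference -4.48 ± 0.49, limma adjusted p = 2.59e-05) and 0.708% in pC (-7.33 ± 0.53, adjusted p = 1.36e-06). Without HpC1 and HpC2, 2.49 remained between HpC and pC and limma's adjusted p was 0.0553. Trf shares 59.5% of its 3433 windows of 50 bases with other genes, mainly Gm20425, which overlaps it on the same strand. Gm20425 stood at 0.231 to 6.74 scaled TPM.

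Hp (ENSMUSG00000031722, chromosome 8, 109575128 to 109579172, minus strand) had the same order at lower levels. It stood at 251, 110, 118.6 and 65.1 scaled TPM across HpC1 to HpC4, at 15.1, 22.0 and 4.76 across pC1 to pC3, and at 2944, 3542 and 3216 across H1 to H3. The groups did not overlap. HpC averaged 136 ± 79.9 (SD, n = 4), 9.75 times the 14.0 ± 8.69 (n = 3) of pC, a log2 difference of 3.24 ± 0.50 (limma adjusted p = 0.00571). The call held in all 23 alternatives, with log2 differences from 2.66 to 3.66. Hp was at 4.21% of the H mean in HpC and at 0.432% in pC (log2 differences -4.73 ± 0.50 and -7.97 ± 0.54, limma adjusted p = 1.94e-05 and 8.86e-07).

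Hpx (ENSMUSG00000030895, chromosome 7, 105591613 to 105600137, minus strand), the heme scavenger, did not separate in the same way. It stood at 111, 53.1, 67.8 and 9.86 scaled TPM across HpC1 to HpC4 and at 13.9, 18.5 and 3.15 across pC1 to pC3. HpC4 lay among the pC libraries and the other HpC libraries lay above them. The log2 difference was 2.12 ± 0.74 and missed the threshold (limma adjusted p = 0.164), but passed once HpC4 was left out (2.81, adjusted p = 0.0174). Without HpC1 and HpC2 the difference shrank to 1.36 (limma adjusted p = 0.483). In H, Hpx stood at 2627, 2765 and 2737, the tightest of the carriers. HpC reached 2.23% and pC 0.437% of that mean (log2 differences -5.88 ± 0.74 and -7.99 ± 0.80, limma adjusted p = 6.91e-05 and 1.28e-05).

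Hepatocyte markers moved with these genes in part. Their sum was 5980, 3188, 5952 and 3120 scaled TPM across HpC1 to HpC4, and 2709, 2450 and 1034 across pC1 to pC3. HpC4 and pC3, the lowest of their groups in this sum, were also lowest in Trf, Hp and Hpx. Within HpC these genes had the order of the sum but not its proportions. HpC1 and HpC3 had like sums with Hp at 251 and 118.6, and HpC2 and HpC4 had like sums with Hpx at 53.1 and 9.86. pC1 lay above pC2 in the sum and below it in Hp and Hpx. Of the 12 hepatocyte markers, 1 passed as higher in HpC than in pC (Serpina1a, log2 difference 2.45, limma adjusted p = 0.0165) and 0 as lower, and their median difference was 0.63. At an unadjusted p under 0.05, 2 were higher. The 1.29 ± 0.37 of Alb (4445, 2505, 4759 and 2719 in HpC, 2100, 1720 and 782 in pC) did not pass (adjusted p = 0.0866). Whether a hepatocyte transcript in a sorted cholangiocyte library came from hepatocytes, from free RNA or from the sorted cells was not tested. In bulk libraries fewer cells of a type and less RNA per cell cannot be told apart.

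Each member was therefore also set against Alb within its library, as the difference of log2(scaled TPM + 1). Every gene's ratio contains the same Alb value of its library, whereas limma pools the spread over genes as if they were independent. The p-values of ratios to Alb, here and below, can thus be far too small for the number of libraries. Relative to Alb, Trf stood at -1.75, -1.86, -2.51 and -2.76 across HpC1 to HpC4, at -3.66, -3.54 and -4.14 across pC1 to pC3, and at -1.87, -1.58 and -1.70 across H1 to H3. HpC1 and HpC2, the libraries with pancreatic and squamous transcripts, reached the H range, HpC3 and HpC4 lay below every H library, and all 4 lay above pC. The HpC value was higher than that of pC by 1.56 ± 0.48 (limma adjusted p = 0.00937), and the -0.50 ± 0.48 between HpC and H did not pass (adjusted p = 0.301), nor did the -0.92 without HpC1 and HpC2 (adjusted p = 0.0839). Hp gave 1.95 ± 0.47 (adjusted p = 0.00214) and -0.75 ± 0.47 (adjusted p = 0.119), and without HpC1 and HpC2 it was below H (-1.26, adjusted p = 0.0199). With the mean of Alb, Apoa1, Ttr and Serpina1a as the reference, the differences from H had the other sign and did not pass (0.60 for Trf, adjusted p = 0.364, and 0.35 for Hp, adjusted p = 0.597). In pC both ratios were below those of H, by -2.06 ± 0.51 for Trf and -2.70 ± 0.50 for Hp (limma adjusted p = 0.000138 and 1.03e-06). With the 4-gene reference the pC difference from H still passed for Hp (-1.57, adjusted p = 0.0265) and not for Trf (-0.94, adjusted p = 0.183), and neither gene passed between HpC and pC (Trf 1.54, adjusted p = 0.109, and Hp 1.93, adjusted p = 0.0720). Relative to Alb 72.4% of all genes differed between HpC and pC, 0.345% higher and 72.1% lower in HpC, since the reference itself was higher in HpC. Against H, 96.6% of all genes differed in HpC relative to Alb, 94.9% higher and 1.69% lower.

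Relative to Alb, HpC was below H for Hpx (-1.90 ± 0.50, limma adjusted p = 0.000319), Hamp (-1.85 ± 0.51, adjusted p = 0.000651), Tfr2 (-1.42 ± 0.49, adjusted p = 0.00506) and Hamp2 (-4.70 ± 0.51, adjusted p = 4.01e-13). With the 4-gene reference only Hamp2 of these still passed, and Hpx (-0.79, adjusted p = 0.237), Hamp (-0.74, adjusted p = 0.270) and Tfr2 (-0.31, adjusted p = 0.667) did not. In pC, where 97.8% of all genes differed from H relative to Alb, 96.9% higher and 0.894% lower, Hpx (-2.72 ± 0.53, adjusted p = 2.79e-06) and Hamp2 (-2.02 ± 0.55, adjusted p = 0.000477) were lower than in H. With the 4-gene reference Hpx still passed there (-1.60, adjusted p = 0.0253) and Hamp2 did not (-0.89, adjusted p = 0.223). Hamp (-0.48 ± 0.55, adjusted p = 0.387) and Tfr2 (-0.70 ± 0.52, adjusted p = 0.187) did not pass there. The Tfr2 ratio rests on levels near the pseudocount and took the other sign (1.06) with a pseudocount of 5. Tfrc, Slc40a1, Fth1 and Hmox1 were among the many genes higher than in H relative to Alb.

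**Figure D3:**
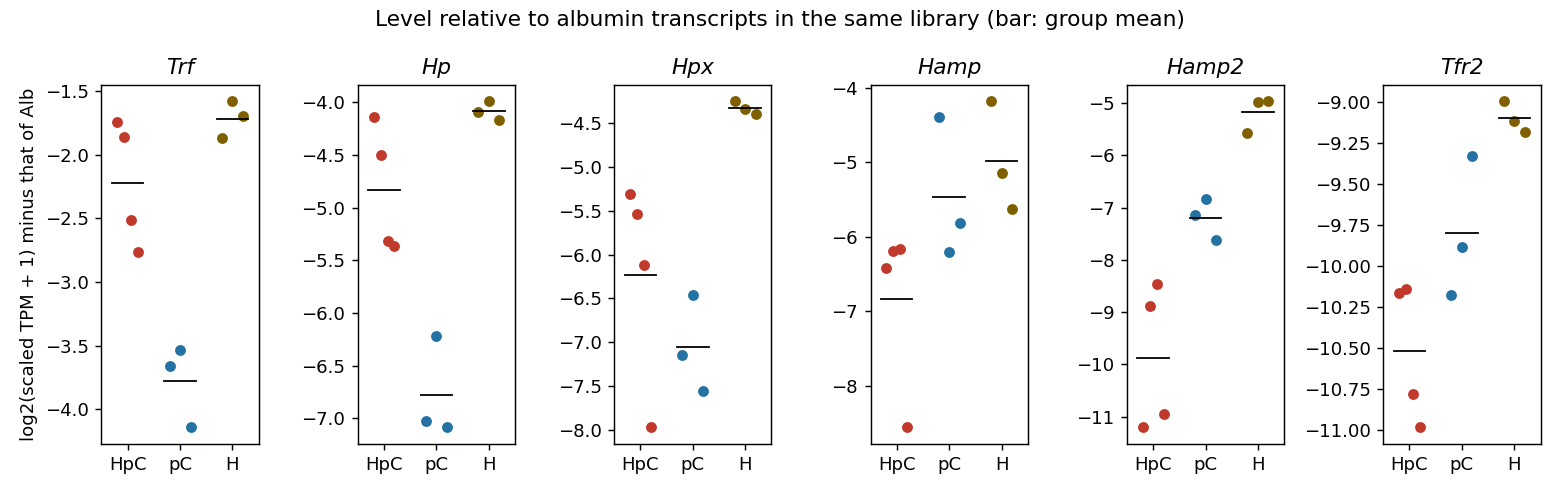
Level of 6 genes relative to Alb in the same library, as a difference of log2(scaled TPM + 1), with a point per library and a bar at the group mean. For Trf, HpC1 and HpC2 reach the H range while HpC3 (-2.51) and HpC4 (-2.76) lie below it, and for Hamp2 all HpC libraries lie below both other groups, at -8.46 to -11.2.

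The hepcidin genes showed no call between the cholangiocyte groups. Hamp (ENSMUSG00000050440, chromosome 7, 30942368 to 30944032, minus strand) stood at 51.1, 33.3, 65.6 and 6.23 scaled TPM across HpC1 to HpC4 and at 99.4, 22.4 and 12.9 across pC1 to pC3. The highest and the lowest pC library spanned most of the HpC range. The log2 difference was -0.07 ± 0.82 (limma adjusted p = 0.976), an SE too wide to show that the levels are alike. Across H1 to H3 Hamp stood at 2763, 1590 and 1162, the widest relative spread of the members in H apart from Hmox1. HpC and pC reached 2.12% and 2.44% of the H mean (log2 differences -5.82 ± 0.82 and -5.75 ± 0.88, limma adjusted p = 0.000152 and 0.000271).

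Hamp2 (ENSMUSG00000056978, chromosome 7, 30922372 to 30924681, minus strand) stood at 0.882, 4.27, 12.5 and 0.366 scaled TPM across HpC1 to HpC4 and at 14.0, 14.1 and 2.98 across pC1 to pC3. The H values were 1048, 1775 and 1845, so that H1 was highest in Hamp and lowest in Hamp2. Of the 7 cholangiocyte libraries, 5 reached 1 TPM. The log2 difference of -1.39 ± 0.76 between HpC and pC missed the threshold (limma adjusted p = 0.385). Against H it was -8.68 ± 0.76 in HpC (adjusted p = 4.87e-06) and -7.29 ± 0.81 in pC (adjusted p = 2.85e-05), at 0.290% and 0.665% of the H mean. Relative to Alb it was lower in HpC than in pC, by -2.68 ± 0.51 (limma adjusted p = 0.000129), as were Hamp (-1.36 ± 0.51, adjusted p = 0.0211) and 72.1% of all genes. The Hamp call ended in 6 of 20 alternatives. These were without HpC4 (-0.79, limma adjusted p = 0.157), without pC1 (-0.82, 0.160), without pC3 (-1.54, 0.0836), under quantile normalisation (-0.93, 0.445), with a pseudocount of 0.1 (-1.38, 0.0633) and with the 4-gene reference (-1.38, 0.115). The Hamp2 call ended under quantile normalisation (-2.28, limma adjusted p = 0.0776) and held with the 4-gene reference (-2.71, 0.00707).

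Ratios within a library do not depend on the scaling. These were chosen after the values were seen and carry no test. Hamp2 per Hamp was 0.0173, 0.128, 0.191 and 0.0587 across HpC1 to HpC4, 0.140, 0.630 and 0.231 across pC1 to pC3, and 0.379, 1.12 and 1.59 across H1 to H3. HpC lay below H throughout and pC overlapped both. Hamp2 per Trf was 0.000667 to 0.0150 in HpC, 0.0687 to 0.0956 in pC and 0.0764 to 0.104 in H. By that measure pC overlapped H and HpC did not. Hpx per Hp was 0.151 to 0.571 in HpC, 0.661 to 0.920 in pC and 0.781 to 0.893 in H, again with HpC apart. Trf and Hp, the denominators here, were themselves higher in HpC than in pC, and HpC4 gave the lowest Hpx per Hp.

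Hamp and Hamp2 are printed at their promoters because their levels diverged between libraries while their sequences are close. The sequences are the 250 bases before the start in RefSeq's table on GRCm38.p6, which matched 6 of the 10 members, and they were 91.9% identical (227 of 247 aligned bases). Capitals mark GGCGCC, the core of a BMP-responsive element, and TTCNNNGAA, the core letters of a STAT site. Both motifs read the same on both strands, and no match of one overlaps the other.
Hamp (chr7:30944030-30944279, minus strand): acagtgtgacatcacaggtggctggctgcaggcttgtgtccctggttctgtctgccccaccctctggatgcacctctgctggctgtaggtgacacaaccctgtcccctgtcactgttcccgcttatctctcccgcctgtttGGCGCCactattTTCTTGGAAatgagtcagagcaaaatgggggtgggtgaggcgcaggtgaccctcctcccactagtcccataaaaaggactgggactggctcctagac
Hamp2 (chr7:30924182-30924431, minus strand): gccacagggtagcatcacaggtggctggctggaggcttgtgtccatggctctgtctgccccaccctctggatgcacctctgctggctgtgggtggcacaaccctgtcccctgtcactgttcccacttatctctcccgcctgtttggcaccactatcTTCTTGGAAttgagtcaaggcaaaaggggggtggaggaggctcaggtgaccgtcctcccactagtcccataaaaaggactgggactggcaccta
The Hamp window holds GGCGCC 109 bases and TTCNNNGAA 97 bases before the start. The Hamp2 window holds TTCNNNGAA 94 bases before the start and no GGCGCC. Of 32851 promoter windows, 9.59% held GGCGCC and 7.02% held TTCNNNGAA. The transcripts were 94.6% identical (388 of 410 bases), and 16.6% of Hamp windows of 50 bases and 16.2% of Hamp2 windows occur in the other gene, so short reads from those stretches cannot be assigned to 1 of the 2 genes.

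Of the receptors, Tfrc (ENSMUSG00000022797, chromosome 16, 32608920 to 32632794, plus strand), whose 3′ elements are printed above, was at similar mean levels. It stood at 13.2, 30.3, 13.6 and 21.9 scaled TPM across HpC1 to HpC4, at 13.9, 18.4 and 22.9 across pC1 to pC3 and at 20.7, 17.8 and 14.8 across H1 to H3. All 3 ranges overlapped. Markers of erythroid cells, which are rich in this receptor, summed to 378, 98.0, 253 and 37.3 scaled TPM over 10 genes across HpC1 to HpC4, 59.0 to 128 in pC and 12.3 to 25.2 in H, highest in the HpC libraries with least Tfrc, and their part in its level was not tested. The log2 differences were 0.04 ± 0.29 for HpC against pC, 0.07 ± 0.29 for HpC against H and 0.03 ± 0.31 for pC against H, and none passed (limma adjusted p = 0.956, 0.838 and 0.935). On TPM as deposited, without a factor between libraries, Tfrc was higher than in H in HpC (1.14, adjusted p = 0.0333) and in pC (1.50, adjusted p = 0.0100). That scale raises the median of all genes against H by 0.788 in HpC and by 1.09 in pC.

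Tfr2 (ENSMUSG00000029716, chromosome 5, 137569840 to 137587481, plus strand) was high in hepatocytes only. It stood at 97.3, 100.3 and 98.2 scaled TPM across H1 to H3. The HpC values were 2.88, 1.22, 1.71 and 0.345, and the pC values 0.821, 0.821 and 0.218. The H libraries lay close together and far above the rest, and HpC overlapped pC through HpC4. Differences from H were -5.39 ± 0.31 in HpC and -5.97 ± 0.33 in pC in log2 units (limma adjusted p = 3.54e-07 and 3.00e-07). The 0.57 ± 0.31 between HpC and pC did not pass (adjusted p = 0.387).

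Slc40a1 (ENSMUSG00000025993, chromosome 1, 45908068 to 45926523, minus strand), the iron exporter, was present in all groups. It stood at 10.7, 7.80, 13.0 and 10.4 scaled TPM across HpC1 to HpC4, at 10.1, 9.27 and 8.23 across pC1 to pC3 and at 34.9, 37.8 and 40.5 across H1 to H3. HpC and pC overlapped and differed by 0.16 ± 0.17 (limma adjusted p = 0.675). Both were below H, by -1.77 ± 0.17 and -1.93 ± 0.18 (limma adjusted p = 9.41e-06 and 8.59e-06), or 27.8% and 24.4% of its mean. On TPM as deposited neither passed (-0.68, adjusted p = 0.0907, and -0.45, adjusted p = 0.264). The pC difference was also lost on totals without mitochondrial, pancreatic and squamous genes (-0.64, limma adjusted p = 0.0913). Macrophages also make ferroportin, and the part of their transcripts, whose sums are given above, in the Slc40a1 level was not tested. Between HpC and pC, 0 of the 9 macrophage markers tested passed in limma, also 0 at an unadjusted p under 0.05. Against H, where Slc40a1 was lower, 6 of the 9 were higher in HpC and 8 in pC, and 0 were lower. Of all genes tested, 30.7% and 31.1% were higher there.

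Fth1 (ENSMUSG00000024661, chromosome 19, 9980598 to 9985098, plus strand) was the second most abundant member in HpC and the most abundant in pC. It stood at 434, 338, 316 and 253 scaled TPM across HpC1 to HpC4, at 430, 509 and 346 across pC1 to pC3 and at 1250, 1522 and 1457 across H1 to H3. HpC and pC overlapped, with a log2 difference of -0.36 ± 0.21 (limma adjusted p = 0.418). Both were below H, by -2.09 ± 0.21 in HpC (adjusted p = 1.36e-05) and by -1.73 ± 0.23 in pC (adjusted p = 9.00e-05). On TPM as deposited the first still passed (-0.96, adjusted p = 0.00894) and the second did not (-0.17, adjusted p = 0.613). The pC difference was also lost under quantile normalisation (-0.37, limma adjusted p = 0.174). It was lost too on totals without mitochondrial, pancreatic and squamous genes (-0.36, adjusted p = 0.230).

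The light chain gene Ftl1 differed from Fth1 in its order of groups. It stood at 390, 304, 318 and 246 scaled TPM across HpC1 to HpC4, at 234, 258 and 193 across pC1 to pC3 and at 1366, 1315 and 1352 across H1 to H3. HpC minus pC was 0.45 ± 0.18, opposite in sign to that of Fth1, and did not pass either (limma adjusted p = 0.225). Fth1 per Ftl1 within a library was 1.11, 1.11, 0.993 and 1.03 across HpC1 to HpC4, 0.915, 1.16 and 1.08 across H1 to H3, and 1.84, 1.97 and 1.79 across pC1 to pC3. HpC (1.06 ± 0.06, SD, n = 4) and H (1.05 ± 0.12, n = 3) overlapped, and all pC libraries (1.87 ± 0.10, n = 3) lay above both. This ratio was also singled out after its values were seen, and no test is given. Fth1 shares 6.59% of its windows of 50 bases with its copy Gm6977, which stood at no more than 0.966 scaled TPM, and the copy Fth-ps2 at no more than 3.14. Windows that Ftl1 shares with other genes were not examined. Tfrc per Fth1, a pair with opposite responses to iron at the protein level, was 0.0304 to 0.0897 in HpC, 0.0324 to 0.0663 in pC and 0.0102 to 0.0166 in H. Both cholangiocyte groups lay above H and overlapped each other.

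**Figure D4:**
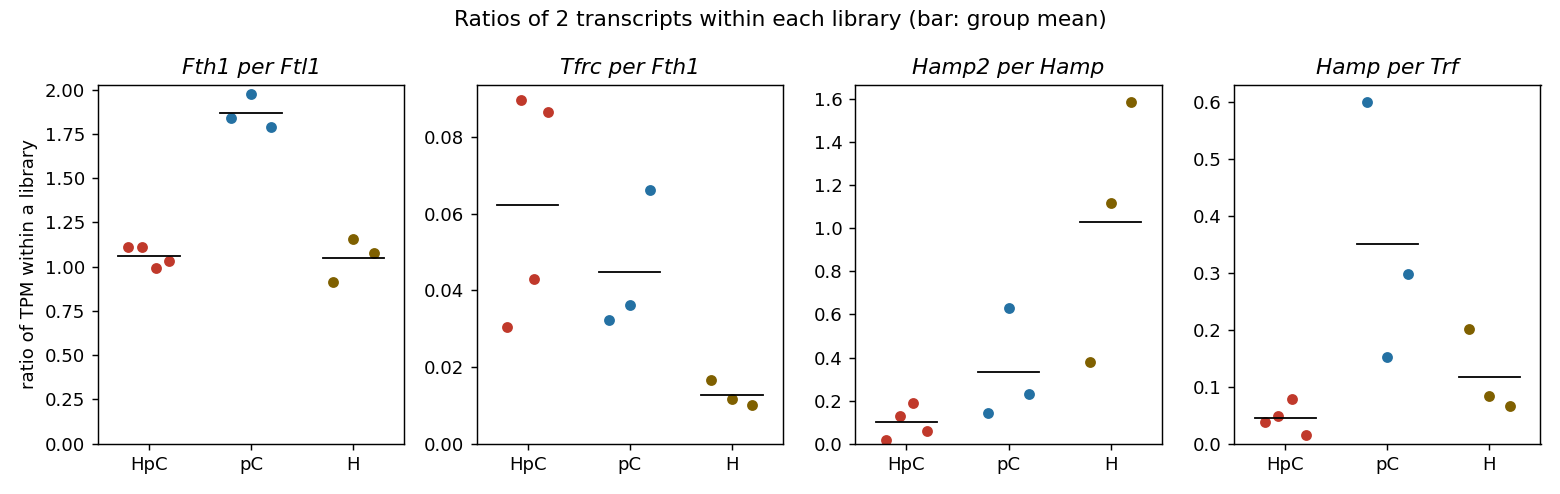
Ratios of 2 transcripts within a library, on axes from 0, with a point per library and a bar at the group mean. Fth1 per Ftl1 is 1.79 to 1.97 in pC and 0.915 to 1.16 in the other 7 libraries, and Tfrc per Fth1 is lowest in H.

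Hmox1 (ENSMUSG00000005413, chromosome 8, 75093621 to 75100589, plus strand) was low in every library. It stood at 10.4, 14.4, 11.7 and 8.49 scaled TPM across HpC1 to HpC4, at 4.43, 6.40 and 7.32 across pC1 to pC3 and at 6.80, 8.73 and 2.49 across H1 to H3. All HpC libraries lay above all pC libraries, and HpC4 lay just below H2. HpC exceeded pC by 0.80 ± 0.33 on the log2 scale, which missed the threshold (limma adjusted p = 0.246). HpC exceeded H by 0.91 ± 0.33, which passed narrowly (adjusted p = 0.0369) and was lost in 8 of 23 alternatives, among them without H3 (0.47, adjusted p = 0.140), without HpC1 (0.94, adjusted p = 0.0542), without HpC2 (0.79, adjusted p = 0.0817) and without HpC3 (0.88, adjusted p = 0.0732). On TPM as deposited it was larger (1.82, adjusted p = 0.00138). pC exceeded H by 0.11 ± 0.36, which did not pass (adjusted p = 0.799), but Hmox1 was higher in pC on TPM as deposited (1.39, adjusted p = 0.00906) and on totals without mitochondrial, pancreatic and squamous genes (1.29, adjusted p = 0.0132). A transcript with a retained intron took 29.3% to 61.9% of the Hmox1 level, with the groups overlapping and the largest share in H2. The protein-coding transcript alone stood at 5.65, 7.44, 7.03 and 5.19 across HpC1 to HpC4. It stood at 2.96, 3.49 and 3.35 across pC1 to pC3 and at 4.64, 3.33 and 1.76 across H1 to H3. For that transcript every HpC library lay above every pC and H library. Of its partners in heme breakdown, the constitutive oxygenase Hmox2 stood at 47.2 to 59.9 in HpC, 52.6 to 61.1 in pC and 114 to 120 in H. On scaled TPM, Hmox2 was lower than in H in both groups (log2 differences -1.12 ± 0.13 and -1.05 ± 0.14, limma adjusted p = 3.84e-05 and 0.000108). These differences were not recomputed on TPM as deposited, which moved the median of all genes against H by 0.788 in HpC and 1.09 in pC. The Hmox2 calls may therefore depend on the scaling. Biliverdin reductase Blvrb was lower than in H by -3.04 ± 0.37 in HpC (adjusted p = 4.79e-05), and the -0.42 ± 0.23 of Blvra did not pass (adjusted p = 0.134).

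Other genes of the same pathways were examined by list. Between HpC and pC, 0 passed in either direction among 6 of ferritin and iron storage, 5 of iron sensing, 10 of heme synthesis, 14 of heme transport and breakdown and 23 of iron-sulfur cluster assembly. At an unadjusted p under 0.05 these lists had 1, 0, 1, 2 and 1 genes higher and 0, 0, 0, 0 and 1 lower. Their medians were 0.13, 0.10, 0.03, 0.14 and -0.05. These are near the -0.01 of all genes, of which 4.54% passed. Unadjusted counts of these and the following lists stand beside 1162 higher and 1462 lower of all 14765 genes tested.

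Of 11 genes of iron uptake and transport, 1 was higher in HpC than in pC and 0 lower, with a median of 0.43, and 5 were higher and 1 lower at an unadjusted p under 0.05. It was Steap4, a ferrireductase, at 16.6, 6.81, 13.3 and 7.17 scaled TPM across HpC1 to HpC4 and 1.28, 2.37 and 2.91 across pC1 to pC3, a log2 difference of 1.85 ± 0.32 (limma adjusted p = 0.00969). Steap4 was higher in H than in either, at 40.1 to 60.9, and its call held in all 23 alternatives. The metal importers Slc39a14 (12.5 to 36.1 in HpC, 23.5 to 42.5 in pC) and Slc11a2 (6.51 to 11.3 and 3.06 to 8.27) did not pass (limma adjusted p = 0.522 and 0.391). Lcn2, a siderophore binder, ranged from 39.6 to 266 within pC alone. Of the 2 ferroxidases tested, Heph was lower in HpC than in pC (-0.84 ± 0.18, adjusted p = 0.0276), at 1.31 to 2.44 against 3.60 to 5.01 and no more than 0.0474 in H. The Heph call was lost in 10 of 23 alternatives, among them without HpC3 (adjusted p = 0.0533), pC1 (0.124) or pC2 (0.0990). Cp, secreted ceruloplasmin, was at 466 to 885 in HpC, 710 to 800 in pC and 1669 to 1779 in H.

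Among 25 genes of hepcidin regulation, 0 were higher and 2 lower in HpC than in pC, and 3 and 3 at an unadjusted p under 0.05. Atoh8, a transcription factor that responds to BMP signals, stood at 7.51, 2.84, 3.16 and 4.72 scaled TPM across HpC1 to HpC4 and at 57.3, 48.9 and 20.2 across pC1 to pC3, a log2 difference of -2.90 ± 0.38 (limma adjusted p = 0.00270) that held in all 23 alternatives. Id1, a direct BMP target, stood at 13.0, 16.5, 9.97 and 9.44 in HpC and at 69.8, 52.9 and 24.3 in pC (-1.83 ± 0.33, adjusted p = 0.0125), a call lost without pC1 (adjusted p = 0.0512) or pC2 (0.0678). The BMP targets Smad6 (-0.53 ± 0.36, adjusted p = 0.492) and Smad7 (-0.13 ± 0.25, adjusted p = 0.828) did not pass, nor did the ligands Bmp2 (0.67 ± 0.22, adjusted p = 0.129) and Bmp6 (0.50 ± 0.24, adjusted p = 0.301). Bmp6 was at 8.57 to 21.7 in the cholangiocyte groups and at no more than 0.148 in H. The co-receptor hemojuvelin, named Hfe2 in the annotation, stood at 30.1 to 35.7 in H and at no more than 1.22 in HpC and 0.546 in pC. The protease Tmprss6, which cleaves hemojuvelin, stood at 103 to 122 in H, 6.44 to 11.8 in HpC and 7.08 to 12.9 in pC. The list median was -0.11.

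The list of the oxidative stress factor NRF2 and the heme sensor BACH1, which control Hmox1, had 2 of 15 genes higher in HpC than in pC and 0 lower, with a median of 0.57, and 7 higher and 2 lower at an unadjusted p under 0.05. Gclc (0.57 ± 0.12, limma adjusted p = 0.0291), of glutathione synthesis, was lost in 12 of 23 alternatives and Txnrd1 (0.65 ± 0.16, adjusted p = 0.0439), a thioredoxin reductase, in 16, both on TPM as deposited (0.18 and 0.24, adjusted p = 0.714 and 0.692). Both were lost without any one of pC1, pC2, pC3, H1, H2, H3 or HpC3, with adjusted p up to 0.122 for Gclc and 0.182 for Txnrd1, and Txnrd1 also without HpC2 (0.0716) or HpC4 (0.0641). Nfe2l2, which encodes NRF2 (0.81 ± 0.27, adjusted p = 0.137), and Bach1 (0.57 ± 0.16, adjusted p = 0.0844) did not pass. Nqo1, another NRF2 target, stood at 26.4 in HpC2 and at 0.366 to 0.651 in the other HpC libraries.

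Of 17 acute phase genes, a class to which Hp, Hpx and Hamp belong, 1 was higher and 1 lower, with a median of 0.80. Lbp, which binds bacterial lipopolysaccharide, stood at 31.0, 14.9, 31.0 and 34.0 scaled TPM across HpC1 to HpC4 and at 7.80, 11.7 and 8.78 across pC1 to pC3 (1.42 ± 0.27, limma adjusted p = 0.0151). The Lbp call was lost in 6 alternatives. These were without pC1 (limma adjusted p = 0.0712), without pC3 (0.0553), on TPM as deposited (0.171), on totals without mitochondrial, pancreatic and squamous genes (0.110), with the replicate number as a block (0.0675) and with only the 2 groups compared (0.0552). Crp, C-reactive protein, stood at 35.9, 16.8, 26.1 and 25.0 in HpC and at 78.5, 92.2 and 58.9 in pC (-1.55 ± 0.26, adjusted p = 0.00832), and was lost without pC2 (0.0511). Fgg, a fibrinogen chain, had the larger difference of 2.04 ± 0.55 and did not pass (adjusted p = 0.0725). At an unadjusted p under 0.05, 7 acute phase genes were higher and 1 lower.

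**Figure D5:**
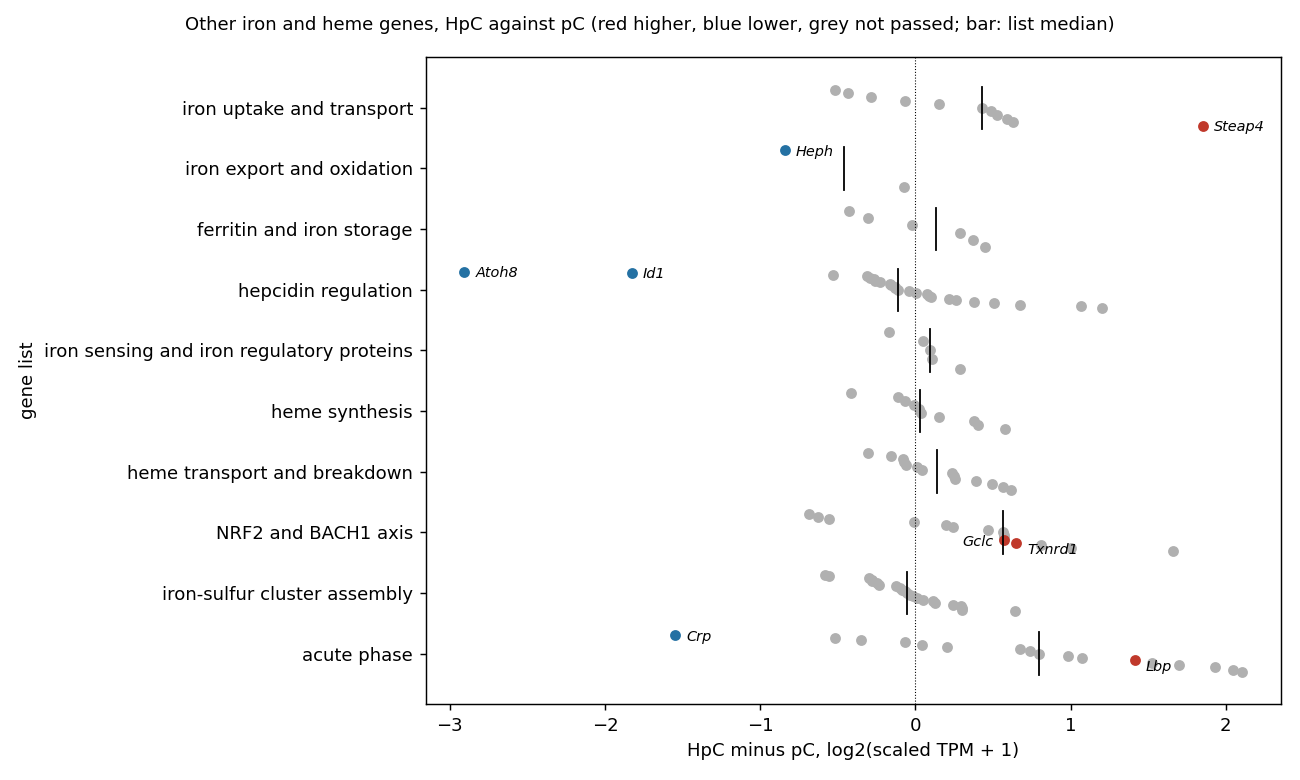
Difference between HpC and pC on the log2(scaled TPM + 1) scale for each tested gene of 10 lists, with a bar at each list's median. The 8 coloured and named genes passed at 5% in limma, from Atoh8 at -2.90 to Steap4 at 1.85.

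Against H the lists separated more. In HpC, 9 of 10 heme synthesis genes and 22 of 23 iron-sulfur cluster genes were lower and 0 higher, where 29.2% of all genes were lower. In pC the counts were 9 and 21 lower and 0 higher. Counts by list against H were made on scaled TPM only. The iron-sulfur list had medians of -1.22 in HpC and -1.27 in pC, and TPM as deposited moved the median of all genes by 0.788 and 1.09. Alas1, the first enzyme of heme synthesis in the liver, stood at 869, 635 and 836 scaled TPM across H1 to H3, 33.9 to 59.8 in HpC and 30.2 to 31.7 in pC, with log2 differences of -4.01 ± 0.20 and -4.59 ± 0.21 (limma adjusted p = 1.64e-07 and 1.22e-07). Fech, which inserts iron into heme, was lower by -1.89 ± 0.16 in HpC (adjusted p = 4.00e-06). Among heme transport genes, 11 of 14 were lower and 1 higher in both groups. They included Lrp1, the receptor for hemopexin with heme, at 456 to 528 in H and 38.1 to 62.6 in the cholangiocyte libraries. Cd163, the macrophage receptor for haptoglobin with hemoglobin, was at no more than 0.614 in any library and was not tested.

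The iron regulatory proteins themselves were lower in HpC than in H, Aco1 by -1.97 ± 0.18 (limma adjusted p = 5.72e-06) and Ireb2 by -1.02 ± 0.14 (adjusted p = 0.000107). On TPM as deposited the Ireb2 difference had the other sign, at 0.0085. Of the 5 iron sensing genes 3 were lower and 1 higher, Fbxl5 (0.94 ± 0.17, adjusted p = 0.000949), a subunit of the ligase that degrades iron regulatory proteins. The counts that follow stand beside 30.7% of all genes higher and 29.2% lower in HpC, and 31.1% and 28.6% in pC. Hepcidin regulation split into 11 higher and 8 lower of 25 in HpC and 14 higher and 7 lower in pC. Of iron uptake genes, 2 were higher and 7 lower of 11 in HpC and 1 and 7 in pC. The NRF2 and BACH1 list had 4 higher and 6 lower of 15 in HpC and 2 and 8 in pC. Acute phase genes had 2 higher and 15 lower of 17 in both. The ferritin list had 1 higher and 3 lower of 6 in HpC and 1 and 4 in pC.

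Likeness of pattern was taken as Pearson's r of log2(scaled TPM + 1) over the 10 libraries, with the 3 nearest genes outside the members named. It is a description, since the 3 groups fix most of it. Trf and Hp had the same nearest genes, Gc (0.999 and 0.997), Kng2 (0.998 and 0.995) and Apob (0.996 and 0.995), which encode plasma proteins. Hpx was nearest to Serpinf2, Fgb and F2 (0.997, 0.996 and 0.995), and Tfr2 to F9, F7 and Cpn2. Hamp was nearest to Slc25a38, Ublcp1 and Aasdhppt (0.991, 0.989 and 0.988), and Hamp2 to Slc20a2, Tmbim6 and Dcakd (0.987, 0.987 and 0.986). Slc40a1 was nearest to Cd1d1, Ifnar2 and Slc6a12 (0.994, 0.993 and 0.991) and Fth1 to Aldh1l1, Kctd2 and Apoc1 (0.996, 0.994 and 0.994). For Tfrc (Gm14335, Piga and Adamts17, at 0.896, 0.878 and 0.876) and Hmox1 (Gm15921, Ppan and Ddx49, at 0.893, 0.888 and 0.887) the nearest genes were less alike.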

How the data were processed

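Per the labels' protocols, RNA of sorted cells was purified with a PicoPure kit, and the library kit was one for low input. For each library the authors deposited TPM of 85276 Ensembl transcripts. Kallisto, DESeq and mm10 are named in the submitters' processing notes, without version or role. TPM sums to the same total in each library and keeps no depth, so no counting error can be given. The design had allowed for counts; with TPM, its limma option applied. Transcripts were summed to genes through GENCODE M21 (mm10); 81927 matched and 3349, holding 4.22% to 9.06% of the TPM, were left out. TPM was divided by an unweighted trimmed mean of log ratios (30% and 5% trimmed). Group means were compared by limma 3.58.1 (R 4.3.3), its prior variance following the mean, on log2(scaled TPM + 1), 1 coefficient per group over all 10 libraries, for the 14765 genes that reached 1 TPM in 3 libraries or more, with Benjamini-Hochberg adjustment at 5%. Fold changes on this scale understate changes of low genes. The step was tested on simulated data. Tables and figures used Python 3.11.15, pandas 2.3.3 and matplotlib 3.10.9.

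The members, the gene lists and the rule for named genes were chosen with earlier results of these data known. The rule took the members, the 3 smallest p-values of each list in HpC vs pC and in HpC vs H, a fixed set of genes and the 3 most alike genes. The text names only some of the listed genes, and gives the rest by counts. Alternatives changed scaling, pseudocount, filter, prior variance, library weights, samples, transcripts summed and the reference to Alb. Those added after seeing the data were the ratios to Alb with libraries left out and Trf summed with Gm20425.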

Additional observations from a re-analysis of the deposited data

Results flagged for a closer look

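Each of 73 genes of the members and lists was examined for a library far from the other 3 of HpC, as a gap to the nearest library that took more of the group's range than Dixon's critical value. No member stood out, and 6 listed genes did, where chance alone gives about 1 in 20. HpC2 was high in Epas1 (45.5 scaled TPM, nearest 35.2), in Alad (45.0, nearest 26.6) and in Nqo1 (26.4, nearest 0.651), and low in Lbp (14.9, nearest 31.0). HpC4 was low in Slco2b1 (0.846, nearest 1.88) and in Itih3 (1.58e-09, nearest 2.90). HpC2 is also the library with squamous epithelial transcripts, whose part in these values was not tested.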

How the results depend on the processing

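Of 696 recomputed differences of single members, 15 lost a call and 8 gained one. The sign changed in 0 of the 442 whose main value had passed and in 22 of the 254 whose main value had not; relative to Alb it changed in 0 of 460 and 7 of 140. Between HpC and pC the members called higher were 1 in place of 2 without HpC1 and HpC2, where Trf missed. Against H, members called higher in HpC were 2 on TPM as deposited and 2 on totals without mitochondrial, pancreatic and squamous genes, 0 without a filter, 0 with only the 2 groups compared, 0 without HpC1 and HpC2, and 0 to 1 with any 1 library left out; in pC they were 2 under each of the first pair of scalings. Replicate numbers did not pair the libraries, since same-numbered libraries differed in age. Correlations of same-numbered deviations were -0.0458 to 0.0839. With the replicate number as a block, Trf (3.15, limma adjusted p = 0.0213) and Hp (3.54, 0.0150) still passed and Hpx came to pass (2.81, 0.0291). HpC4 shares its number with no other library and does not enter these values. All genes called were 269 higher and 304 lower.

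Relative to Alb, members higher in HpC than in pC were 2 in the main comparison, 1 under quantile normalisation, 1 without HpC1 and HpC2 and 0 with the 4-gene reference. Members lower were 5, with 0 under quantile normalisation, 3 with a pseudocount of 0.1, 1 with the 4-gene reference and 2 to 5 with any 1 library left out. With that reference, members lower than in H were 1 in HpC and 2 in pC. The 22 sign changes were Hamp (up to 0.76), Slc40a1 (down to -0.23) and Tfrc (down to -0.36) in HpC against pC, Tfrc against H (down to -0.16 in HpC and -0.13 in pC) and Hmox1 in pC against H (down to -0.33). The 7 relative to Alb were Trf (0.60) and Hp (0.35) in HpC against H with the 4-gene reference, Hmox1 in HpC against pC (up to 0.06), and Hamp (0.64) and Tfr2 (0.43, and 1.06 with a pseudocount of 5, which passed) in pC against H. Of listed genes that had passed in HpC against H, signs changed for Epas1 (0.24 as deposited, 0.17 without the 3 gene classes), Ireb2 (0.0085 as deposited) and Pcbp2 (0.75 as deposited, 0.30 under quantile normalisation, 0.68 without the 3 gene classes). The causes were not tested.

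Over all genes, 294 higher and 377 lower between HpC and pC (43.8% of the 671 higher) became 831 and 966 with array weights, 178 and 195 with only the 2 groups compared, and 138 to 359 higher and 146 to 449 lower with 1 library left out. TPM as deposited gave 552 called between HpC and pC, 26.1% of them higher, 7553 higher and 1519 lower for HpC against H (4528 and 4314 with scaling) and 9361 and 1255 for pC against H (4590 and 4216). It moved the median of all genes by -0.354, 0.788 and 1.09 in the 3 comparisons. Read depth is unknown and sets no stated limit.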
